A study of Homo sapiens with 22 samples.

Results

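The 10 genes described here encode parts of the elastic fibre and the enzymes that cross-link it. FBN1, FBN2, MFAP2, MFAP5, ELN, FBLN1, FBLN5, LOX, LOXL1 and LOXL2 were taken by name, and not by their values, from a table of 36859 genes. Of these 10 genes, 9 reached the minimum of 10 normalized counts in at least 2 libraries and were tested with 14585 genes in all. ELN did not reach it.

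RNA-seq was run on RPTEC, renal proximal tubule epithelial cells immortalized with hTERT, in 22 libraries that form 11 groups of 2. Media with 2% serum were used for untreated WT cells, for the SETD2 knockout clones KO1 and KO2, for libraries labelled KO2 rescue, and for WT cells exposed over 72 h to TGF-β at 10 ng/mL. Media with 10% serum were used for Rescue1 and Rescue2, which are KO2 cells with lentiviral 3×FLAG-tagged SETD2, and for WT cells with lentiviral eGFP, SOX2, OCT2 or PRRX1. SETD2 is the enzyme that trimethylates lysine 36 of histone H3, and the KO lines were made with CRISPR/Cas9 in its exon 3. Each KO and rescue line is 1 clone, whereas the eGFP, SOX2, OCT2 and PRRX1 lines were selected in bulk. Rescue and KO2 cells therefore differ in SETD2, in serum, in clone and in lentivirus, and these cannot be told apart. No source used here says that duplicates came from separate cultures, so the p-values measure only the spread between these libraries.

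Libraries held 11674491 to 16758645 normalized counts, and about 8700000 to 19000000 reads were estimated behind them. SETD2 was measured at 1852 and 2061 normalized counts in WT and at 1046 to 1130 in the KO1 and KO2 libraries. It stood at 9764 to 10445 in Rescue1 and Rescue2. The libraries labelled KO2 rescue held 834 and 820, which is below KO2 and goes against their label. Renal epithelial markers were present in every group, with 8 or 9 of 9 at 10 or more. Of 10 proximal tubule markers, 3 to 5 were at 10 or more in each group. Among them GGT1 stood at 225 to 1090, while SLC22A6 and HNF4A were at 0 in all 22 libraries. Of genes with at least 100 normalized counts, 9.21% differed more than 2-fold between the KO1 duplicates and 5.92% between the WT duplicates, against 2.46% to 4.19% in the other groups. COL1A1 was at 11900 in WT replicate 1 and 532 in WT replicate 2, so results against WT are also given without each of these libraries.

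Elastic fibres consist of an elastin core laid onto a scaffold of fibrillin microfibrils. Fibrillins polymerize into the microfibrils, MFAP2 and MFAP5 are small glycoproteins that bind them, and fibulins help to place elastin on them. Lysyl oxidases are secreted copper enzymes that oxidize lysines of elastin and collagen so that the chains become cross-linked. Microfibrils also hold latent TGF-β through its binding proteins, and TGF-β is a known inducer of several of these genes in mesenchymal cells.

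The upstream sequences of FBN1, MFAP2 and LOX are shown because these 3 genes rose together in TGF-β-treated and KO cells, while FBN1 and MFAP2 then parted in the rescue clones. They come from the RefSeq promoter windows of GRCh38.p14 and are given 5′ to 3′ on the strand of the gene. Windows of 7 of the 10 genes were examined. FBN1 is read from the minus strand at chr15:48644971-48645220, directly before a RefSeq start that lies 739 bases downstream of the 5′ end of the GENCODE canonical transcript, so this stretch is inside the annotated gene but outside its UTRs. MFAP2 is read from the minus strand at chr1:16980621-16980870, and LOX from the minus strand at chr5:122078414-122078509, where the other 154 bases of its window are left out because they are annotated as UTR. Capitals mark CATTCC (the core bound by TEAD factors), ACGTG (the core of the hypoxia response element) and GGGCGG (the core bound by Sp1), each on either strand.
FBN1: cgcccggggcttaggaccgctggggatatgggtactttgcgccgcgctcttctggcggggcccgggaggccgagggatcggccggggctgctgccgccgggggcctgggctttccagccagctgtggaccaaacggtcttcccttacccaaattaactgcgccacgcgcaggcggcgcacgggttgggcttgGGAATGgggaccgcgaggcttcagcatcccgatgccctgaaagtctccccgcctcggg
MFAP2: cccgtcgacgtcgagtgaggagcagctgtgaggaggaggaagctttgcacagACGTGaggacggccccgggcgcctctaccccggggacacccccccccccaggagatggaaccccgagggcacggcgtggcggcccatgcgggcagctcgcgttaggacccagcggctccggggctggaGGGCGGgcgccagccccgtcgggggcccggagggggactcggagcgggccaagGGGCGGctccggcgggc
LOX: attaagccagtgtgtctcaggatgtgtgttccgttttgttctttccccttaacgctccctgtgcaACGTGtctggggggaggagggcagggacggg

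These windows shared no marked motif across all 3 genes. FBN1 held 1 CATTCC, which 11.9% of all 35116 windows of 250 bases hold, and MFAP2 held 1 ACGTG and 2 GGGCGG, found in 18.5% and 42.6% of windows. The whole LOX window of 250 bases held 1 GGGCGG and 4 ACGTG. Only the ACGTG at -185 from the start site lies in the printed stretch, and the other matches lie in the part annotated as UTR. Of all windows, 0.669% hold 4 or more ACGTG. That cutoff was taken from LOX itself and was counted for no other motif. The 7 windows examined leave out ELN, MFAP5 and LOXL2, so nothing is said here about the upstream sequences of those genes. None of the 7 windows held TATAAA, the AP-1 site TGANTCA, the SMAD elements AGCCAGACA or GTCTAGAC, or the CArG box of SRF. Of all windows 10.7%, 6.57%, 0.231%, 0.182% and 1.16% hold these, in this order. ATGCAAAT (octamer), TAATTA (homeobox) and ACAATG (SOX) were likewise not in the 7 windows, against 1.63%, 4.35% and 9.29% of all windows. The E-box CANNTG, which overlaps ACGTG where it reads CACGTG, was in FBN1, FBN2, MFAP2 and LOXL1 and in 61.8% of windows. A match describes these letters only.

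Levels were far from even. Per kilobase of the canonical transcript, the median over 22 libraries was 12800 normalized counts for LOXL2, 1280 for FBN1, 379 for MFAP2, 197 for LOX, 127 for FBLN1 and 67.5 for LOXL1. FBLN5 at 2.06, MFAP5 at 1.01, FBN2 at 0.182 and ELN at 0 were near the limit of detection. Of the scaffold and cross-linking genes, FBN1, MFAP2, LOX, LOXL1 and LOXL2 were thus better covered, and FBN2 and MFAP5 were not. The gene of the elastin core was not detectable at this depth in most libraries.

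**Figure D1:**
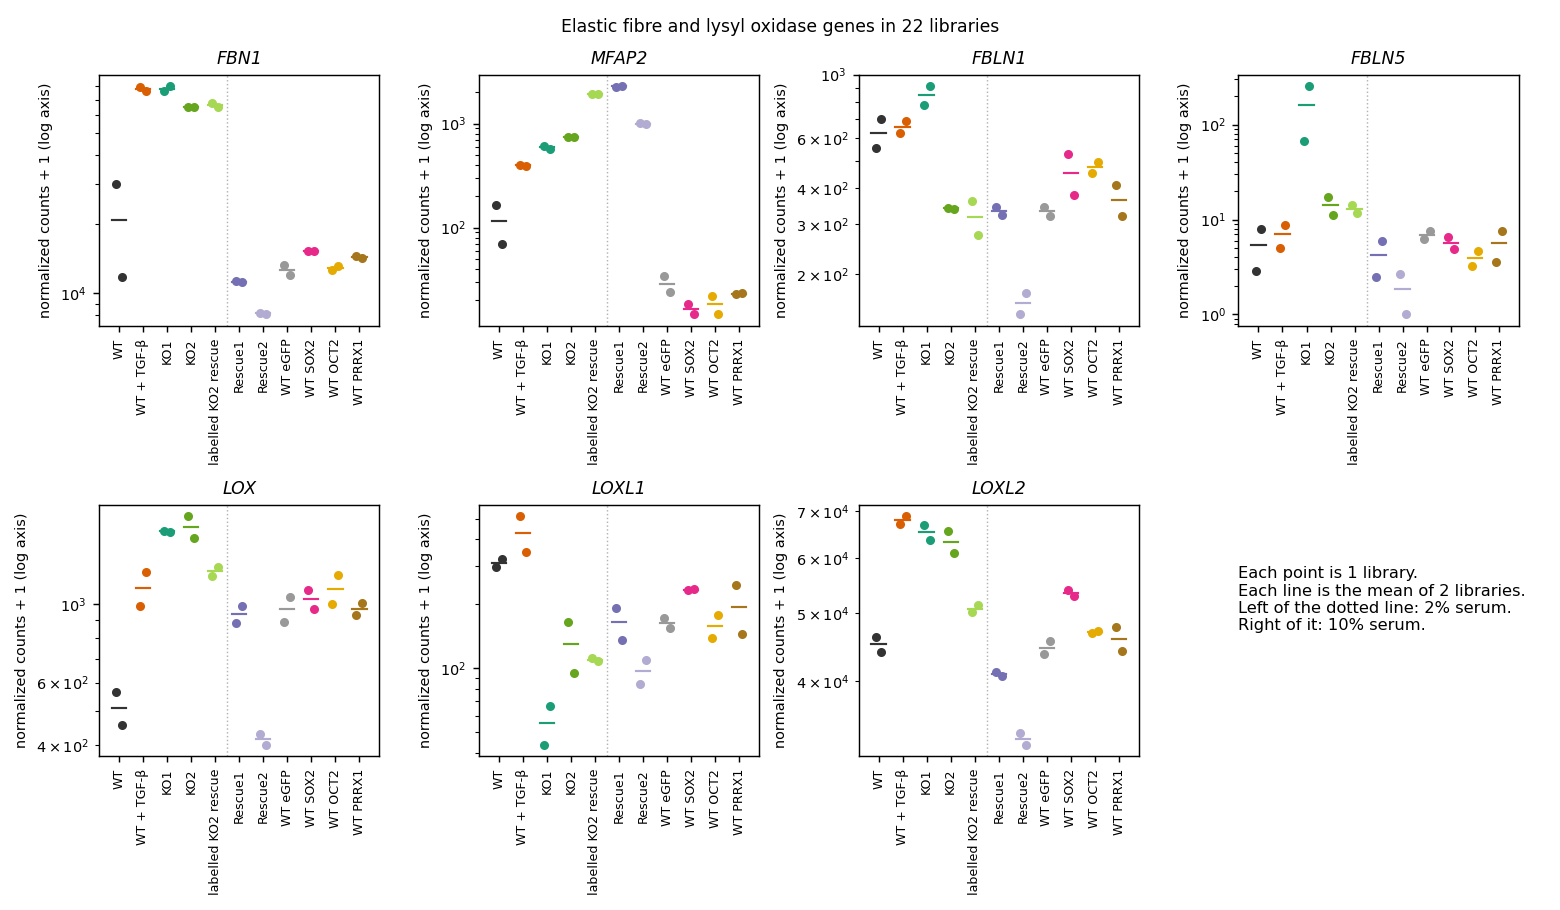
Normalized counts plus 1 (log axis) of the 7 better-covered genes, with 1 point per library and a line at the mean of each group of 2. FBN1 stands at 64800 to 80208 in the TGF-β, KO1, KO2 and labelled KO2 rescue libraries and at 8071 to 29860 elsewhere, while MFAP2 stands at 983 to 2303 in both rescue clones.

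The first question was how TGF-β and SETD2 loss each moved these genes in WT cells. A gene is called higher or lower here when limma's adjusted p was under 0.05 and the change was over 2-fold. Against WT, 3 of the 9 tested genes were called higher with TGF-β and 0 lower, where 7.84% of all genes were called in either direction. In KO1 4 were called higher and 1 lower, with a background of 25.0%, and in KO2 3 were higher and 1 lower, with a background of 16.3%. FBN1, MFAP2 and LOX were higher in all 3 comparisons. These comparisons share the WT libraries, so they are not independent of each other. The median log2 change of the 9 genes was 0.49 for TGF-β, 0.53 for KO1 and 1.31 for KO2. That of all genes was 0, 0 and 0.003. With 9 genes each median is the change of 1 gene, namely FBLN5 for TGF-β, LOXL2 for KO1 and FBN2 for KO2. FBLN5 and FBN2 were near the limit of detection, with SEs of 0.797 and 1.366 here. These medians therefore do not measure a shift of the set.

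FBN1 (ENSG00000166147, GRCh38 chromosome 15 from 48408313 to 48645721, minus strand, 66 exons) encodes fibrillin-1, the main microfibril protein. The WT duplicates held 29860 and 11747 normalized counts of it. TGF-β-treated cells held 79351 and 75944, KO1 cells 75980 and 80208, and KO2 cells 64813 and 64800. Every treated or KO library was above both WT libraries, which differed 2.54-fold from each other. The rise was 4.14-fold for TGF-β (log2 2.05 ± 0.26 SE, adjusted p = 5.57e-05), 4.17-fold in KO1 (2.06 ± 0.26, adjusted p = 1.27e-05) and 3.46-fold in KO2 (1.79 ± 0.26, adjusted p = 7.58e-05). Set against WT replicate 2 alone, these changes became 2.72, 2.73 and 2.46. Set against WT replicate 1 alone, they became 1.38, 1.39 and 1.12, so the call held while the size depended on the WT library. COL1A1, a fibroblast marker, and MFAP2 were higher in the same WT replicate 1, and the part of this in the fold was not tested. In bulk RNA, fewer cells of a type and less RNA per cell cannot be told apart.

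KO and TGF-β levels of FBN1 were close. The mean of KO1 and KO2 was lower than TGF-β-treated WT by a log2 change of -0.13, with a 95% interval of -0.60 to 0.35 (adjusted p = 0.705). KO1 exceeded KO2 by 0.27 (interval -0.28 to 0.82, adjusted p = 0.535). Neither difference passed the test, and the intervals leave room for changes of up to these bounds.

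In the rescue clones FBN1 stood at 11264 and 11164 in Rescue1 and at 8225 and 8071 in Rescue2, below every KO2 library. This was a 5.78-fold fall in Rescue1 (log2 -2.53 ± 0.26, adjusted p = 3.16e-06) and a 7.95-fold fall in Rescue2 (log2 -2.99 ± 0.26, adjusted p = 5.86e-07). For Rescue1 against KO2, 1 of the 9 genes was called higher and 1 lower, with 16.1% of all genes called. For Rescue2 against KO2, 0 were higher and 4 lower, with 15.3% of all genes called. WT cells with eGFP, also in 10% serum, held 13247 and 12054, and the rescue clones together differed from them by -0.40 on the log2 scale (interval -0.88 to 0.07, adjusted p = 0.199). The libraries labelled KO2 rescue, in 2% serum, held 67827 and 65165, a log2 difference of 0.04 from KO2 (interval -0.51 to 0.59, adjusted p = 0.977). These libraries differ from Rescue1 and Rescue2 in serum as well as in SETD2 counts, which cannot be told apart for FBN1.

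MFAP2 (ENSG00000117122, chromosome 1 from 16974502 to 16980632, minus strand, 9 exons) encodes microfibril-associated glycoprotein 1, a partner of fibrillin. WT cells held 162 and 68.7 normalized counts. TGF-β-treated cells held 402 and 391, KO1 cells 605 and 572, and KO2 cells 744 and 748. The 4 groups did not overlap, and the KO clones were above the TGF-β libraries. The rise against WT was 3.72-fold for TGF-β (log2 1.897 ± 0.308, adjusted p = 0.00051), 5.53-fold for KO1 (2.47 ± 0.31, adjusted p = 1.31e-05) and 2.81 ± 0.31 on the log2 scale for KO2 (adjusted p = 5.79e-06). Leaving out WT replicate 1 or 2 gave 2.51 or 1.28 for TGF-β, 3.08 or 1.85 for KO1, and 3.42 or 2.19 for KO2. For KO against TGF-β, 1 of the 9 genes was called higher and 1 lower, with a background of 20.2%. MFAP2 was 1.67-fold higher in KO than with TGF-β (log2 0.74 ± 0.27, adjusted p = 0.0422), which is under the 2-fold threshold, and the adjusted p was 0.0613 to 0.168 when any 1 library was left out.

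MFAP2 did not follow FBN1 in the rescue clones. It stood at 2257 and 2303 normalized counts in Rescue1 and at 1007 and 983 in Rescue2, with every rescue library above every KO2 library. Rescue1 was 3.05-fold higher than KO2 (log2 1.61 ± 0.31, adjusted p = 0.00103). Rescue2 was higher by 0.41 on the log2 scale, which did not pass the test (interval -0.25 to 1.07, adjusted p = 0.36). Against eGFP-transduced WT cells in the same serum, which held 33.0 and 22.8, MFAP2 was the 1 gene called higher of the 9, with 0 lower and a background of 13.1%. The difference was 53.0-fold (log2 5.73 ± 0.27, adjusted p = 8.37e-10).

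The libraries labelled KO2 rescue held 1924 and 1941 normalized counts of MFAP2, above all 4 libraries of KO1 and KO2. The 2.59-fold difference from KO2 (log2 1.37 ± 0.31, adjusted p = 0.00959) made MFAP2 the 1 gene called higher of the 9, with 0 lower and 4.17% of all genes called. When any 1 of the 4 libraries was left out, the log2 change was 1.37 to 1.38 and the adjusted p was 0.0554 to 0.0654, so that call rested on all 4 libraries. The MFAP2 counts of all 3 lines labelled as rescue thus lay above those of both KO clones, although Rescue2 against KO2 did not pass the test. These lines were not all in the same serum nor alike in SETD2 counts, and the part of either in MFAP2 was not tested.

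Within single libraries the ratio of FBN1 to MFAP2 counts described this parting. It was 184 and 171 for the WT duplicates and 198 and 194 for TGF-β-treated cells, close to each other although the levels of both genes rose. It was 125 and 140 in KO1, 87.1 and 86.6 in KO2, 35.3 and 33.6 in the labelled KO2 rescue libraries, 4.99 and 4.85 in Rescue1, and 8.17 and 8.21 in Rescue2. In eGFP cells it was 401 and 530. The WT duplicates, which differed more than 2-fold in each of the genes, hardly differed in the ratio.

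**Figure D2:**
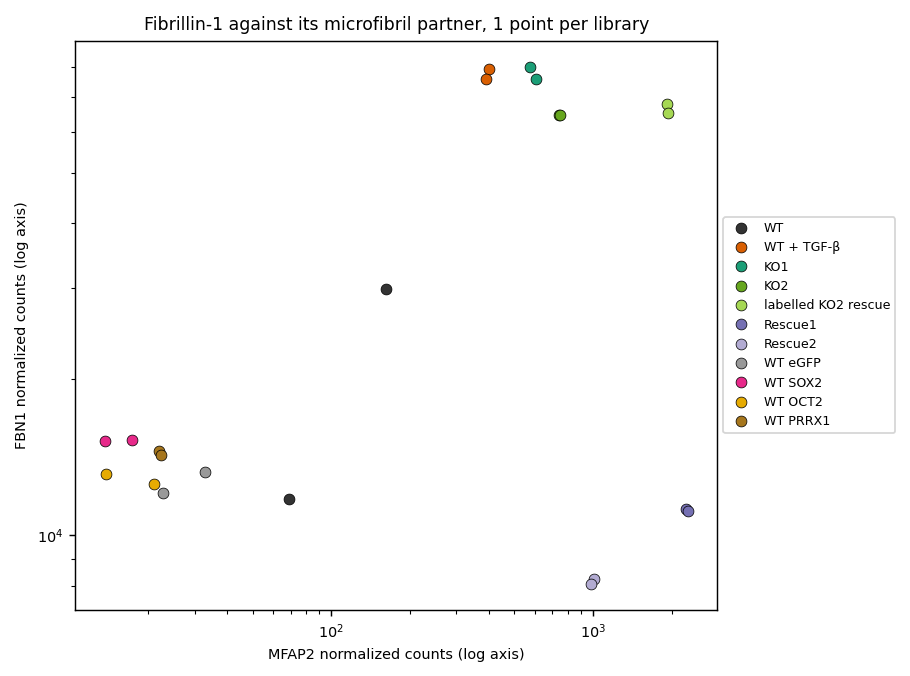
FBN1 against MFAP2 in normalized counts, both on log axes, with 1 point per library coloured by group. WT and TGF-β libraries lie along 1 ratio, at 171 to 198, whereas the rescue clones lie at the lower right, at 4.85 to 8.21, and the transduced WT lines at the left, at 401 to 1120.

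The transduced WT lines held the lowest MFAP2 levels of all, from 13.6 to 33.0 normalized counts over 8 libraries. Comparing eGFP cells with untransduced WT, which differ in both lentivirus and serum, gave 0 of the 9 genes higher and 1 lower, with 12.7% of all genes called. MFAP2 was that gene, 3.75-fold lower (log2 -1.91 ± 0.31, adjusted p = 0.000303), with -1.29 and -2.52 without WT replicate 1 and 2. For FBN1 the log2 change was -0.57 (unadjusted interval -1.12 to -0.02), which did not pass the adjustment (adjusted p = 0.123). SOX2, OCT2 and PRRX1 are transcription factors expressed here from lentivirus, and against eGFP 0 of the 9 genes were called for any of them. All genes were called at 0.0206% for SOX2, 0.0343% for OCT2 and 0.0411% for PRRX1 in the same limma test. At an unadjusted p under 0.05 the genes numbered 3, 1 and 0 of the 9, among 986, 1026 and 673 genes in all.

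FBN2 and MFAP5 are the other fibrillin and microfibril glycoprotein of the set, and both stayed near the floor of 3 normalized counts. FBN2 (ENSG00000138829, chromosome 5 from 128257909 to 128659185, minus strand, 65 exons) ranged from 0 to 16.7 and was at 0 in 7 of 22 libraries. Its highest pair was Rescue2, at 13.3 and 16.7. MFAP5 (ENSG00000197614, chromosome 12 from 8637346 to 8662888, minus strand, 10 exons) ranged from 0 to 13.7 and was highest in KO2, at 13.7 and 7.15. Neither was called in any of the 14 comparisons, and changes of this size could not be resolved at such counts. Exons of FBN2 and MFAP5 overlap those of SLC27A6 and HADHAP2 on the opposite strand, and LOX exons overlap those of SRFBP1.

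ELN (ENSG00000049540, chromosome 7 from 74027789 to 74069907, plus strand, 33 exons) encodes elastin itself. It was at 0 in 18 of 22 libraries, among them both WT, both TGF-β and all 4 Rescue1 and Rescue2 libraries. The 4 libraries with any signal were KO1 at 5.44 and 1.64, KO2 replicate 1 at 2.04 and eGFP replicate 1 at 3.06. ELN was not among the 14585 genes tested. Without the filter, over 21519 genes, it was called higher in KO1 than in WT (limma, adjusted p = 0.015) and in 0 of the other 13 comparisons. The fitted size depends on the pseudocount, and no fold is given because KO1 replicate 2, at 1.64, was itself under the floor of 3. ELN was thus not detected in the TGF-β libraries, and only KO1 replicate 1 among the KO libraries exceeded the floor.

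The fibulins differed between the KO clones. FBLN5 (ENSG00000140092, chromosome 14 from 91869411 to 91947987, minus strand, 11 exons) encodes fibulin-5, which binds elastin and LOXL1. WT cells held 1.88 and 6.92 normalized counts. TGF-β-treated cells held 4.07 and 7.86, KO1 cells 66.4 and 255, and KO2 cells 16.2 and 10.3. Both KO1 libraries stood above every other library, although they differed 3.84-fold from each other. KO1 was called higher than WT (log2 4.78 ± 0.80, adjusted p = 0.000203), and the change was 3.82 to 5.74 with 1 library left out. KO2 against WT gave 1.54 ± 0.80 and did not pass (adjusted p = 0.174).

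FBLN5 was also higher in KO1 than in KO2 by 3.24 ± 0.80 on the log2 scale (adjusted p = 0.0123). In this comparison of the clones 2 of the 9 genes were called higher in KO1 and 1 lower, with 6.97% of all genes called. The call was lost without KO1 replicate 2 (log2 2.28, adjusted p = 0.123) and without KO2 replicate 2 (log2 2.935, adjusted p = 0.0953). The mean of both clones was above TGF-β-treated WT by 2.67 ± 0.69 (adjusted p = 0.00683), with KO1 well above KO2, and that call was lost without TGF-β replicate 1 (log2 2.27, adjusted p = 0.0837). In Rescue2 FBLN5 was at 1.69 and 0, which is at least 4.4-fold lower than in KO2 (adjusted p = 0.00894). That call too was lost without KO2 replicate 1 (adjusted p = 0.0668) or Rescue2 replicate 2 (adjusted p = 0.0981). In Rescue1 it was at 1.46 and 4.91, which did not pass (log2 -1.87 ± 0.80, adjusted p = 0.0948).

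FBLN1 (ENSG00000077942, chromosome 22 from 45502238 to 45601135, plus strand, 17 exons) encodes fibulin-1, found in basement membranes and on elastic fibres. WT cells held 551 and 698 normalized counts. TGF-β-treated cells held 623 and 687, KO1 cells 779 and 912, and KO2 cells 341 and 337. The clones thus lay on opposite sides of WT. KO1 was above KO2 by 1.31 ± 0.19 on the log2 scale (adjusted p = 0.000272), and this call held with any 1 of the 4 libraries left out, at 1.197 to 1.423. Against WT, KO1 gave a log2 change of 0.44 that did not pass (adjusted p = 0.081), and KO2 was lower by a log2 change of -0.87 (adjusted p = 0.00277), under the 2-fold threshold. Equal library totals moved the KO2 value to -1.094, past the threshold, as did leaving out WT replicate 1 (-1.038). TGF-β left no difference that passed (log2 0.08, interval -0.33 to 0.48, adjusted p = 0.872).

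FBLN1 kept the level of its parent clone in Rescue1, at 343 and 322, and was lower in Rescue2, at 144 and 171. Rescue2 fell by 1.11 on the log2 scale against KO2 (± 0.19 SE, adjusted p = 0.000439). That call was lost with equal library totals (log2 -0.78) and without Rescue2 replicate 1 (log2 -0.98). Rescue1 was above Rescue2 by 1.08 ± 0.19 (adjusted p = 0.00693). Between the rescue clones 2 of the 9 genes were called higher in Rescue1 and 0 lower, with a background of 0.994%. Without Rescue1 replicate 1 or Rescue2 replicate 1 the adjusted p for FBLN1 was 0.0643 or 0.0983, so its call was lost there.

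The lysyl oxidases did not move as a family, since LOX rose and LOXL1 fell in both KO clones. LOX (ENSG00000113083, chromosome 5 from 122063195 to 122078413, minus strand, 7 exons) encodes the founding lysyl oxidase. WT cells held 563 and 454 normalized counts. TGF-β-treated cells held 986 and 1227, KO1 cells 1604 and 1595, and KO2 cells 1765 and 1529. All KO libraries were above all TGF-β libraries, which were above WT. The rise against WT was 3.16-fold in KO1 (log2 1.66 ± 0.14, adjusted p = 2.36e-07), 3.24-fold in KO2 (1.70 ± 0.14, adjusted p = 3.18e-07) and 2.17-fold for TGF-β (1.12 ± 0.14, adjusted p = 5.97e-05).

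The TGF-β call for LOX was near the 2-fold threshold. It was lost on fold, not on adjusted p, with equal library totals (log2 0.88), without WT replicate 2 (0.97) and without TGF-β replicate 2 (0.96). KO exceeded TGF-β-treated WT by 0.56 ± 0.12 (adjusted p = 0.0021), and the clones differed by -0.04 (interval -0.34 to 0.26, adjusted p = 0.904). Rescue1 held 880 and 986 and Rescue2 held 429 and 400. Rescue2 was 3.96-fold lower than KO2 (log2 -1.99 ± 0.14, adjusted p = 7.60e-08), Rescue1 was 1.76-fold lower (log2 -0.82 ± 0.14, adjusted p = 0.00045), and Rescue1 was 2.25-fold above Rescue2 (log2 1.17 ± 0.14, adjusted p = 0.000242). eGFP cells stood at 888 and 1048, higher than WT by 0.93 ± 0.14 (adjusted p = 0.00018), so the LOX levels of Rescue1 overlapped those of eGFP cells, and those of Rescue2 lay below both eGFP and WT cells. The eGFP change passed 2-fold without WT replicate 1 (1.085) and without eGFP replicate 1 (1.049).

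LOXL1 (ENSG00000129038, chromosome 15 from 73925989 to 73952137, plus strand, 7 exons) encodes the oxidase that fibulin-5 ties to elastin. WT cells held 298 and 323 normalized counts. TGF-β-treated cells held 513 and 347, KO1 cells 42.8 and 65.5, and KO2 cells 164 and 94.1. No KO library reached a WT library, and KO1 stood below KO2. KO1 was 5.76-fold lower than WT (log2 -2.53 ± 0.33, adjusted p = 1.85e-05) and KO2 was 2.49-fold lower (log2 -1.31 ± 0.33, adjusted p = 0.00662). The KO2 call was lost without KO2 replicate 2 (log2 -0.92, adjusted p = 0.0971).

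TGF-β moved LOXL1 by 0.44 on the log2 scale, which did not pass (interval -0.26 to 1.14, adjusted p = 0.437). The test of KO against TGF-β itself gave a 5.15-fold lower level in KO (log2 -2.36 ± 0.28, adjusted p = 9.66e-06), in each of 4 KO libraries against both TGF-β libraries. KO1 was below KO2 by a log2 change of -1.21 ± 0.33 (adjusted p = 0.0204), a call that was lost without KO1 replicate 1 (adjusted p = 0.11) or KO2 replicate 1 (adjusted p = 0.195). Rescue1 held 191 and 134 normalized counts of LOXL1, and Rescue2 held 83.4 and 108. Differences from KO2 were 0.36 (interval -0.34 to 1.06) and -0.38 (interval -1.08 to 0.32), and adjusted p was 0.45 and 0.435. The eGFP cells in the same serum stood at 170 and 153, from which the rescue clones together differed by -0.38 on the log2 scale (interval -0.99 to 0.22, adjusted p = 0.353). The eGFP cells were themselves lower than WT by a log2 change of -0.94 ± 0.33 (adjusted p = 0.0466).

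**Figure D3:**
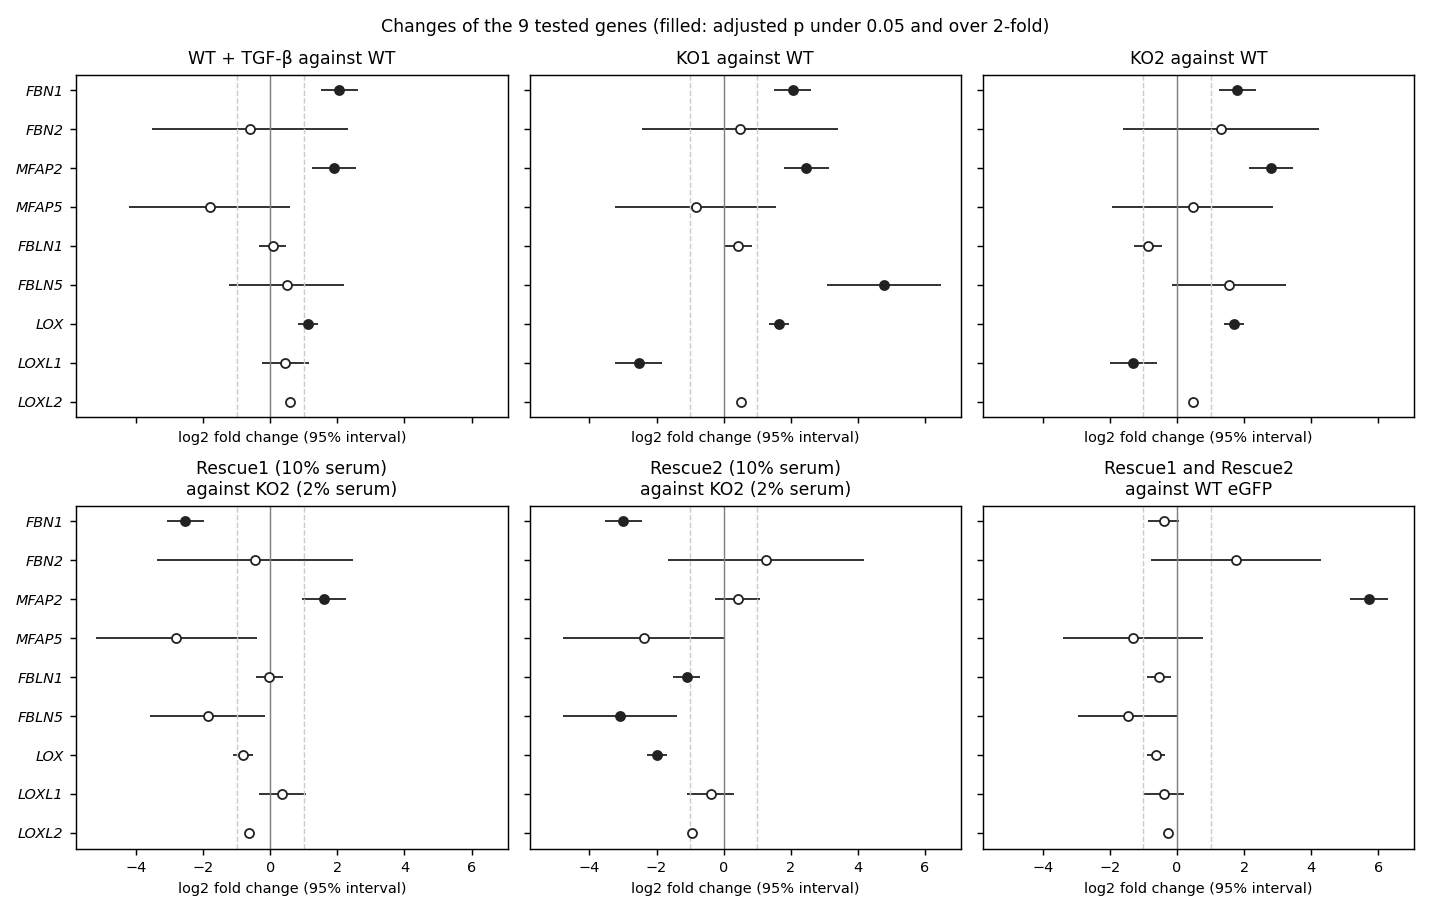
Log2 change with its 95% interval (x axis) for the 9 tested genes (y axis) in 6 comparisons, with filled points for genes called at an adjusted p under 0.05 and over 2-fold. FBN1, MFAP2 and LOX lie to the right in the upper 3 panels, LOXL1 lies to the left in KO1 and KO2, and FBN1 and MFAP2 lie on opposite sides in Rescue1.

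The ratio of LOX to LOXL1 counts within a library put these movements side by side. It was 1.89 and 1.41 for WT, 1.92 and 3.53 for TGF-β-treated cells, 37.5 and 24.3 for KO1, and 10.8 and 16.2 for KO2. The labelled KO2 rescue libraries kept a high ratio of 10.9 and 11.9. Rescue1 was at 4.61 and 7.36 and Rescue2 at 5.14 and 3.7, which overlapped the 10% serum WT lines at 3.83 to 7.29. The ratios of WT cells in 2% serum and of the transduced WT lines did not overlap.

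**Figure D4:**
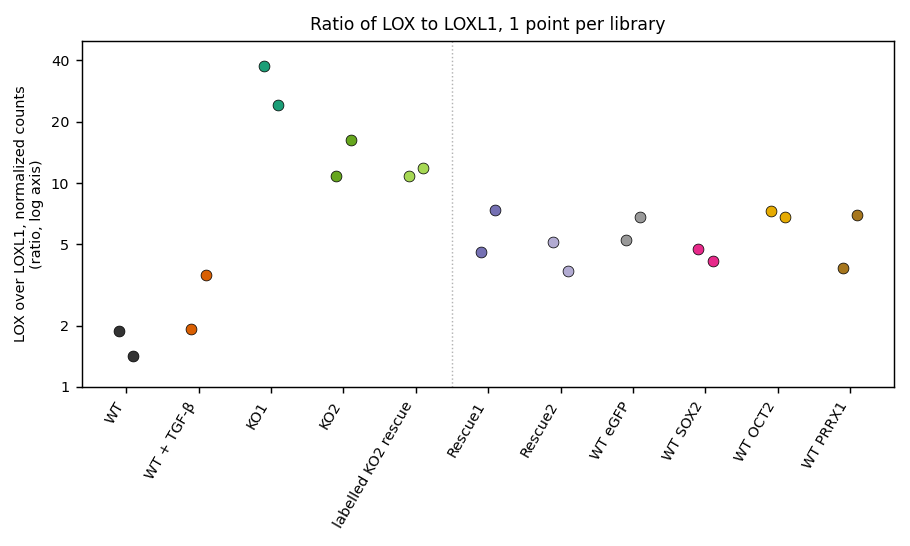
Ratio of LOX to LOXL1 normalized counts (log axis) with 1 point per library in 11 groups, and a dotted line between 2% and 10% serum. The KO1 and KO2 libraries lie at 10.8 to 37.5 and both WT libraries under 2.

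LOXL2 (ENSG00000134013, chromosome 8 from 23296897 to 23425328, minus strand, 14 exons) encodes an oxidase of collagen IV that is also known from mesenchymal and hypoxic tumour cells. Per kilobase it was the most abundant member, and it made up 97.6% to 98.7% of the summed LOX, LOXL1 and LOXL2 counts in each library. Without division by length, mean FBN1 counts were above those of LOXL2 in the TGF-β, KO1, KO2 and labelled KO2 rescue groups. WT cells held 46237 and 44073 normalized counts. TGF-β-treated cells held 67094 and 68784, KO1 cells 66763 and 63676, and KO2 cells 65544 and 60967. The WT libraries were below all 6 others, and the duplicates differed at most 1.08-fold. The log2 rises of 0.59 ± 0.05 for TGF-β (adjusted p = 1.62e-06), 0.53 ± 0.05 for KO1 (adjusted p = 8.06e-07) and 0.49 ± 0.05 for KO2 (adjusted p = 3.34e-06) passed on p but not on size.

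LOXL2 fell in each rescue line relative to KO2. It stood at 41208 and 40609 in Rescue1, at 33669 and 32430 in Rescue2, and at 50154 and 51302 in the labelled KO2 rescue libraries. The log2 changes were -0.63 (adjusted p = 2.99e-07), -0.94 (adjusted p = 4.17e-09) and -0.32 (adjusted p = 0.000668), all with an SE of 0.05 and under 2-fold. Both rescue clones were below eGFP cells at 43706 and 45576 (log2 -0.28 ± 0.04, adjusted p = 0.000198). The order of groups by mean was TGF-β, KO1, KO2, SOX2, labelled KO2 rescue, OCT2, PRRX1, WT, eGFP, Rescue1 and Rescue2, in which KO1 with KO2 and OCT2, PRRX1, WT and eGFP overlapped their neighbours. LOXL2 exons overlap those of ENTPD4 on the same strand in the annotation, so reads of the shared part could be split between them.

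The summed counts of fibroblast and stromal markers also differed between groups, led by different genes in different groups, and the markers did not move as 1 set. A list of 10 such markers summed to 847 to 12500 normalized counts for WT, 46400 to 47800 for TGF-β-treated cells, 224000 to 237000 for KO1 and 100000 to 104000 for KO2. In these groups 3, 6, 5 and 5 of the 10 markers had a level of at least 10. COL1A1 made up nearly all of the TGF-β sums, at 46600 and 45000, and DCN nearly all of the KO sums, at 222000 to 235000 in KO1 and 95000 to 98400 in KO2. COL3A1 was at or under 1.39 in the KO clones. The rescue clones summed to 845 to 1570 and the labelled KO2 rescue libraries to 39200 to 41500. The transduced WT lines summed to 3690 to 6050, with THY1 at 1220 to 2940. A list of 6 smooth muscle and pericyte markers, most of it ACTA2, summed to 319 to 384 for WT and 442 to 522 for TGF-β-treated cells. ACTA2 itself was not higher with TGF-β, at 306 and 287 against 310 and 308 in WT. CNN1 (113 and 89.6) and CSPG4 (79.4 and 50.9) made up most of the rest with TGF-β. The sums were 767 to 803 for KO1, 1160 to 1210 for KO2 and 1350 to 1430 for the labelled KO2 rescue libraries. They were 765 to 892 for the rescue clones and 264 to 306 for eGFP cells. MYH11, a defining smooth muscle marker, was at 0 in WT and TGF-β-treated cells. It was at 0 and 18.3 in the KO1 duplicates and at 6.29 and 0 in those of KO2. The part of these markers in the values of FBN1, MFAP2 and LOX was not tested. Renal epithelial markers summed to 39700 to 43300 for WT, 32700 to 34500 for TGF-β-treated cells, 17700 to 19400 for KO1 and 25900 to 26800 for KO2. The sums were 44300 to 45300 for the labelled KO2 rescue libraries, 41300 to 45500 for the rescue clones and 26400 to 27900 for eGFP cells. KRT8, KRT19 and PAX8 made up most of each sum. The order of groups by these sums was not that by FBN1. The part of the epithelial markers in the FBN1 values was not tested.

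A wider list of 40 other elastic fibre genes, of which 37 were in the table and 30 were tested, was counted beside the members. For TGF-β 6 were called higher and 1 lower, in KO1 7 and 8, and in KO2 5 and 3. These are 7, 15 and 8 of the 30 genes (23.3%, 50% and 26.7%), where 7.84%, 25.0% and 16.3% of all genes were called. The latent TGF-β binding proteins, which dock TGF-β on microfibrils, had 3 of 4 genes higher with TGF-β and 2 of 4 in each KO clone. LTBP2 rose from 36.5 and 24.0 normalized counts in WT to 460 and 320 with TGF-β (log2 3.65, adjusted p = 0.000676), and to 146 to 287 over the KO libraries. LTBP3 was higher with TGF-β by 1.39 (adjusted p = 0.000128).

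Proteinases that mature the oxidases split. BMP1, which removes the propeptide of LOX, was at 2780 and 1660 in WT and at 8030 and 7550 with TGF-β (log2 1.86, adjusted p = 1.66e-06). BMP1 was also higher in KO1 (log2 1.05, adjusted p = 8.52e-05) and, under the 2-fold threshold, in KO2 (log2 0.69, adjusted p = 0.00399). Its relative TLL1 was at 34.7 and 16.8 in WT and at 155 to 156 with TGF-β. That change of TLL1 did not pass (log2 2.63, adjusted p = 0.116). In all 4 KO libraries TLL1 was at or under 2.33. That is at least 8.57-fold lower in each KO clone than in WT (adjusted p = 0.00583 and 0.0148). In Rescue2 TLL1 stood at 22.3 and 19.2, at least 6.92-fold above KO2 (adjusted p = 0.021).

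Enzymes that degrade elastin moved in both directions, and 8 of 9 were tested. MMP2, a gelatinase, rose from 3060 and 599 in WT to 8980 and 9140 with TGF-β (log2 2.74, adjusted p = 0.000577) and to 11300 and 11900 in KO2 (log2 3.10, adjusted p = 9.04e-05). MMP9, the other gelatinase, went from 1130 and 722 in WT to 0 in both KO1 libraries, at least 308-fold lower (adjusted p = 2.23e-07), and to 7.45 and 4.93 in KO2 (log2 -7.00, adjusted p = 1.27e-05). MMP7, matrilysin, was lower in KO1 (log2 -3.62, adjusted p = 1.11e-05) and in KO2 (log2 -2.64, adjusted p = 0.000333). MMP9 was also at or under 2.62 in all 8 libraries of the transduced WT lines, in 10% serum. ADAMTS6, which binds fibrillin microfibrils, was at 223 and 159 in WT and at 8.24 and 0 in KO1 (log2 -5.96, adjusted p = 0.000676).

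Against KO2, 2 of the 30 list genes were called higher and 2 lower in Rescue1, and 2 higher and 4 lower in Rescue2. These are 4 and 6 of the 30 genes (13.3% and 20%), near the 16.1% and 15.3% of all genes called. EFEMP1, the gene of fibulin-3, was lower in KO1 than in WT, at 37.9 and 136 (log2 -3.42, adjusted p = 2.57e-06). It was at 759 and 696 in KO2, at 3740 and 4480 in Rescue1 (log2 2.49, adjusted p = 0.000104) and at 2300 and 2400 in Rescue2 (log2 1.69, adjusted p = 0.0026). Like MFAP2, its counts in the rescue clones lay above the 827 and 741 of WT and the 1230 and 952 of eGFP cells. The elastase cathepsin S, CTSS, was lower in both clones (log2 -1.57 and -1.37, adjusted p = 4.77e-05 and 0.00017), and LOXL3, a further lysyl oxidase, was higher in Rescue1 (log2 1.97, adjusted p = 0.0312). The other comparisons of the list gave higher and lower calls of 0 and 3 for KO1 against KO2, 2 and 8 for KO against TGF-β, 5 and 2 for rescue against eGFP, 0 and 1 for the labelled KO2 rescue against KO2, and 1 and 3 for eGFP against WT. In this order 10.0%, 33.3%, 23.3%, 3.33% and 13.3% of the list were called, against 6.97%, 20.2%, 13.1%, 4.17% and 12.7% of all genes. Calls numbered 0 for the rescue clones against each other and for SOX2, OCT2 and PRRX1.

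Patterns across the 22 libraries were compared by Pearson's r over all tested genes, as a description that groups and depth shape. The gene most like FBN1 was B2M (r = 0.953), and among members LOXL2 (0.857). The gene most like MFAP2 was GPR37 (0.966), and its nearest member was FBN1 at 0.425. GOLGA2 was most like LOX (0.925), PTPRF most like LOXL1 (0.892), SEZ6L2 most like LOXL2 (0.916), B4GALNT3 most like FBLN1 (0.927) and NBPF14 most like FBLN5 (0.929). For LOXL1 the nearest member was FBLN1, at 0.24.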

How the data were processed

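RNA-seq was measured in 22 libraries of 11 groups, taken from their labels. The authors quantified reads against transcripts of Ensembl 94 (GRCh38) with Salmon, and normalized them with DESeq2; the submitters' processing notes give versions 1.9.0 and 1.26.0. The deposited values are on a log2 scale, from 11.32 to 21.28, and their transformation is not given in the sources used here. All libraries share the lowest value, and the values were read as variance-stabilized. They were inverted to normalized counts, which cluster at multiples of 1 step per library, from 0.81 to 1.39, without being whole, so no count test was run. Totals divided by the step approximate the reads, which limit precision for genes near 3 normalized counts (the floor, per library).

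Tests were limma's (3.58.1, R 4.3.3, trend) on log2(normalized count + 1), with all 22 libraries in 1 fit, a mean per group and no covariate. This pseudocount understates changes of low genes. Benjamini-Hochberg adjustment ran over 14585 genes that reached 10 normalized counts in 2 or more libraries. A call needed both a change of more than 1 on the log2 scale and an adjusted p below 0.05. Intervals are the fit's 95% intervals. The procedure was tested on simulated data. Symbols were matched in GENCODE 44 for 33878 of 36859 genes. Library kits were stranded, but how strand was used in counting is not given in the sources used here.

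The members, gene lists and comparisons were chosen with earlier results of these data known. All members are named; of the wider list of 40 other genes, up to 4 called genes with the largest changes per comparison with WT or KO2 are named. Python 3.11.15, numpy 2.4.6, pandas 2.3.3 and matplotlib 3.10.9 were used. The alternatives tried were other pseudocounts (0.5 and 5), testing without the filter or with a minimum mean of 50, equal totals, the compared groups alone, the deposited log2 values, a replicate block and leaving out each library.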

Additional observations from a re-analysis of the deposited data

Results flagged for a closer look

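The KO clones differed from each other in 3 of the genes by a test of the difference itself, the limma contrast of KO1 minus KO2, in which 6.97% of all genes were called. FBLN1 differed by 1.31 on the log2 scale (adjusted p = 0.000272), FBLN5 by 3.24 (adjusted p = 0.0123) and LOXL1 by -1.213 (adjusted p = 0.0204). All 4 libraries showed each direction, with both KO1 libraries above or below both KO2 libraries. The FBLN1 call held with any 1 library left out, but that of FBLN5 was lost without KO1 replicate 2 (adjusted p = 0.123) or KO2 replicate 2 (adjusted p = 0.0953), and that of LOXL1 without KO1 replicate 1 (adjusted p = 0.11) or KO2 replicate 1 (adjusted p = 0.195).

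The rescue clones, both derived from KO2, differed in 2 genes by the contrast of Rescue1 minus Rescue2, in which 0.994% of all genes were called. FBLN1 differed by 1.078 on the log2 scale (adjusted p = 0.00693) and LOX by 1.168 (adjusted p = 0.000242), with both Rescue1 libraries above both Rescue2 libraries. The FBLN1 call was lost without Rescue1 replicate 1 (adjusted p = 0.0643) or Rescue2 replicate 1 (adjusted p = 0.0983). MFAP2 differed by 1.196 with no overlap of libraries, but did not pass the adjustment (adjusted p = 0.0822).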

How the results depend on the processing

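Pseudocounts of 0.5 and 5, the absence of a filter and the replicate block changed no call of the 63 gene results examined, which leave out ELN. Without the filter ELN entered and was called in KO1, so that 6 of 10 genes were called there instead of 5 of 9. The replicate numbers do not pair the samples: deviations of same-numbered libraries correlated at -0.08 to 0.05 over 55 pairs of groups. With the replicate block FBN1 was still called. Testing only the libraries of the groups compared, which leaves few degrees of freedom, called 0 of the 9 genes for TGF-β, 2 for KO1, 2 for KO2, 0 for KO1 against KO2, 1 for KO against TGF-β, 0 for Rescue1 against Rescue2 and 0 for eGFP against WT. Of all genes it called 0, 1912, 1681, 1, 2339, 1 and 715 in these comparisons, so where few or no genes were called the member counts say nothing about the members. On the deposited log2 values, whose construction compresses changes, 1 gene was called for TGF-β, 1 for KO1, 1 for KO2, 1 for Rescue1, 1 for Rescue2, and 0 for KO1 against KO2, KO against TGF-β, Rescue1 against Rescue2, rescue against eGFP, the labelled KO2 rescue against KO2, and eGFP against WT. Of all genes 31, 178, 94, 64, 67, 23, 134, 1, 35, 35 and 36 were called there. A mean of at least 50, which removes FBLN5, left 1 for KO against TGF-β. Leaving out 1 library gave 1 to 2 for KO against TGF-β, 1 to 2 for Rescue1 against Rescue2, 0 in each case for the labelled KO2 rescue, and 1 to 3 for eGFP against WT.

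With equal totals the median log2 change of all genes was -0.199 for TGF-β, -0.392 for KO1 and -0.204 for KO2. It was -0.207 for KO1 against KO2, 0.233 for Rescue1 and 0.277 for Rescue2. Equal totals turned FBLN1 in Rescue1 against KO2 to 0.255. Other values that changed sign when 1 library was left out, none of them called, were FBLN1 in Rescue1 against KO2 (-0.074 to 0.016, positive without Rescue1 replicate 2), LOX in KO1 against KO2 (-0.142 to 0.065, positive without KO2 replicate 1), and LOXL1 against KO2 in Rescue1 (-0.032 to 0.759, negative without KO2 replicate 2), in Rescue2 (-0.777 to 0.014, positive without KO2 replicate 1) and in the labelled KO2 rescue (-0.592 to 0.199, positive without KO2 replicate 1). The cause was not tested.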

Other observations

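Among the better-covered genes, the labelled KO2 rescue libraries did not overlap KO2 for MFAP2, FBN1, LOX and LOXL2, and only MFAP2 was called. LOXL2, at 50154 and 51302 against 65544 and 60967 in KO2, passed on adjusted p but not on size. In the labelled KO2 rescue libraries FBLN1 was at 362 and 273 normalized counts, overlapping KO2 at 341 and 337, while MFAP2 was above KO2 in both. FBLN5 was at 13.3 and 10.7 there, within the range of KO2 at 16.2 and 10.3. LOX was at 1201 and 1270, below both KO2 libraries, with a log2 change of -0.41 against KO2 that did not pass (interval -0.71 to -0.11, adjusted p = 0.0847).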
